A study of Mus musculus with 12 samples.

Results

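The octamer factors Pou2f1 (Oct1), Pou2f2 (Oct2) and Pou2f3 and the coactivator Pou2af1 (OBF1, also called OCA-B or Bob1) were examined in mouse B-ALL cells treated with the GSK3β inhibitor LY2090314. These 4 genes were taken by name from a table of 41444 genes, as the Pou2 gene family and its B cell coactivator, and the group was chosen by the lower rlog values of *Pou2f2* with LY2090314 in the same 6 libraries that are described here. Those values are therefore given as a description, with no test. All cells were *Ctnnb1* fl/fl pre-B cells from bone marrow, transformed with *BCR*–*ABL1* by retrovirus after growth in IL-7. They carried an inducible Cre-ERT2 vector or the ERT2 vector without Cre, and all received 1 µM 4-OHT for 2 days. With or without 40 nM LY2090314 for 1 day, this made 4 groups of 3 samples. A shorter exposure to the inhibitor is given elsewhere in the study. Only the ERT2 libraries are used here, 3 without and 3 with LY2090314, so β-catenin was floxed but not deleted in both groups, and the controls received 4-OHT as well. The Cre-ERT2 libraries were not analysed here, because the names of the 6 remaining columns could not be tied to a group.

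POU factors bind DNA through a paired domain, a POU-specific part and a homeodomain, and the Pou2 class recognises the octamer, an 8-base motif of immunoglobulin promoters and enhancers. Oct1 is made in most cells, Oct2 mainly in the B lineage and in neurons, and Pou2f3 in keratinocytes and tuft cells. OBF1 binds the octamer only together with the POU domain of Oct1 or Oct2. In B cells, Oct2 and OBF1 are known for their part in late B cell responses and the germinal centre, and pre-B cells form without them.

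The octamer ATGCAAAT was searched on both strands of RefSeq promoters (GRCm38.p6), which run from 250 bases before to 50 after a gene's start. It stood in 570 of 32851 promoters (1.74%). None of the 5 promoters of *Pou2f1*, *Pou2f2* and *Pou2af1* in this table held it. Counted by gene symbol, it stood in a promoter of 532 of 27025. No promoter was available for the immunoglobulin genes *Ighm*, *Ighd*, *Igkc* and *Iglc2*, nor for *Cd79b*, *Ms4a1* and *Spi1* among others. Those genes were therefore not searched. Of 46 genes with a promoter among the members and the 6 gene lists described later, 3 held an octamer. They were *Mef2b*, *Gadd45a* and the coactivator gene *Pou2af2*, which the annotation lists as 1810046K07Rik. These 3 are shown, with the octamers in capitals, because their levels differed in kind: *Mef2b* was lower with LY2090314, *Gadd45a* was higher and *Pou2af2* was listed at 0 in all 6 libraries. The octamer began 85 bases before the RefSeq start of *Mef2b*, which lies inside the longer GENCODE gene (chr8:70139711-70167488), 97 and 70 bases before that of *Gadd45a*, in opposite orientations, and 86 and 55 bases before that of *Pou2af2*, also in opposite orientations.
Mef2b (chr8:70152646-70152711, plus strand): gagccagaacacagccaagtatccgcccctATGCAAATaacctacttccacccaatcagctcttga
Gadd45a (chr6:67037442-67037532, minus strand): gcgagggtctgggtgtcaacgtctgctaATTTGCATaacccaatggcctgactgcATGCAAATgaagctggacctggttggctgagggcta
Pou2af2 (chr9:51328943-51329033, minus strand): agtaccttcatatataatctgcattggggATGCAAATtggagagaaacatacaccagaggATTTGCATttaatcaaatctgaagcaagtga
For comparison, stretches before the start of the lower factor, *Pou2f2*, and of the coactivator, whose values overlapped between the groups, are printed without capitals. The *Pou2f2* start is likewise an internal one, since the annotated gene extends further upstream.
Pou2f2 (chr7:25132513-25132610, minus strand): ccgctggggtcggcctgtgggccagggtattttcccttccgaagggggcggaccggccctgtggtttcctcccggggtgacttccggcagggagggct
Pou2af1 (chr9:51213540-51213639, plus strand): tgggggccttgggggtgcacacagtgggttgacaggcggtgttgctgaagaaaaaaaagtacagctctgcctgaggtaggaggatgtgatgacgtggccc
The core of TCF/LEF sites, CTTTGAT on either strand, was in 1225 of the 32851 promoters (3.73%) and in none of the 5 member promoters. A match is a string of letters in a window and was not tested as a binding site.

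Levels are given as rlog values, a log2 scale on which counts have been adjusted for the size of each library and genes with few reads are drawn towards their own mean. A difference of 1 is a doubling, and differences of genes with few reads are understated. The depth of the libraries is unknown, because no counts were used. The SD of the difference between 2 libraries across 11536 genes was 0.185 to 0.253 within a group and 0.581 to 0.622 between groups. Treated libraries 14A and 14B share a library number, and library 15 does not. Whether 14A and 14B are separate samples or 1 sample run again is not known, and the 3 are counted here as separate samples. With 14A and 14B averaged, *Pou2f2* differed by −2.86, *Pou2f1* by −0.26 and *Pou2af1* by −0.04, 4940 genes passed in place of 5778, and 22 genes of the octamer lists in place of 23, *Cd36* being lost (adjusted p = 0.14). The study describes its replicates as mice, but the labels do not tie libraries to animals, and if libraries share an animal the p-values measure only the spread between these samples. The cells carried the markers of their label: all 11 pre-B markers used here, such as *Cd79a*, *Ebf1* and *Vpreb1*, passed the low-value limit. Of these, 7 were called lower and 2 higher with LY2090314 (adjusted p under 0.05, limma), where 25.3% of all genes tested were called lower and 24.8% higher. Their summed linear level was 108000 to 109300 in control and 81680 to 90310 in treated libraries. Of 6 plasma cell markers 5 were tested, and against the same shares 4 were called higher and 1 lower. *Prdm1*, *Irf4*, *Xbp1* and *Jchain* rose by 4.46, 1.41, 1.385 and 0.31, and *Sdc1* fell by 1.09 (adjusted p = 9.8e-06, limma). Their sums were 9462 to 9678 in control and 25470 to 26660 in treated libraries. *Irf4*, with the highest mean of these markers in both groups (12.75 and 14.16), weighs most in these sums. None of 6 T cell and none of 5 stromal markers reached the limit. Of 7 myeloid markers only *Lyz2* did, and *Mpo*, *Elane* and *Adgre1* were listed at 0. Of 5 erythroid markers only *Hbb-bt* did. The part of these marker levels in the values of the octamer genes was not tested. In bulk RNA, fewer cells of a type and less RNA per cell cannot be told apart.

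*Pou2f2* (ENSMUSG00000008496, chr7:25087344-25179726, minus strand) was lower in every treated library than in any control library. The controls 1, 2 and 3 had rlog values of 10.34, 10.39 and 10.33. Treated libraries 14A, 14B and 15 had 7.66, 7.86 and 7.22. The control libraries were thus nearly level, whereas library 15 lay below the pair that shares a library number, and the groups did not overlap. Means were 10.36 ± 0.031 (SD, n = 3) and 7.58 ± 0.33 (SD, n = 3). The difference was −2.77 on the log2 scale (standard error 0.15), or 6.84-fold once the log is undone. In size it exceeded the differences of 99.5% of the 11536 genes tested. It was the fourth most negative, between *Ptgs1*, which encodes cyclooxygenase 1 (−2.91), and *Myc* (−2.64). Leaving out 1 library at a time gave −2.92 to −2.59, and without library 15, the lowest, the difference was −2.59.

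*Pou2f1* (ENSMUSG00000026565, chr1:165865154-166002678, minus strand), the broadly expressed octamer factor, had overlapping groups. Its rlog values were 12.03, 11.82 and 11.56 in control libraries 1, 2 and 3. In treated libraries 14A, 14B and 15 they were 11.62, 11.55 and 11.49. The 3 treated values sat close together, and control library 3 fell among them. Means were 11.80 ± 0.24 and 11.55 ± 0.062 (SD, n = 3 each), and the difference of −0.25 (standard error 0.11) was about as large as the control SD. It was −0.13 without control library 1 and −0.37 without control library 3.

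*Pou2af1* (ENSMUSG00000032053, chr9:51213708-51240080, plus strand), the coactivator, was the most highly expressed member and had close values in both groups. Control libraries 1, 2 and 3 were at 14.004, 14.003 and 14.032. Treated libraries 14A, 14B and 15 were at 13.94, 13.90 and 14.02, the last within the control range. Means were 14.01 ± 0.016 and 13.95 ± 0.059 (SD, n = 3 each), with a difference of −0.06 (standard error 0.056). Only 14.4% of the genes tested had a smaller difference in size, and 136 of 11536 had a higher mean value. Without library 15 the difference was −0.09, and without 14B it was −0.04.

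*Pou2f3* (ENSMUSG00000032015, chr9:43123939-43210369, minus strand), the factor of keratinocytes and tuft cells, was listed at 0 in all 6 libraries. It did not pass the limit of a mean rlog value of 3, so 3 of the 4 members entered the fit. A total of 21786 genes in the table were listed at 0 in these libraries. Of the 3 members that could be compared, 1 had groups that did not overlap. Among all genes tested 58.6% had, 29.5% with the treated libraries lower and 29.1% with them higher.

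**Figure D1:**
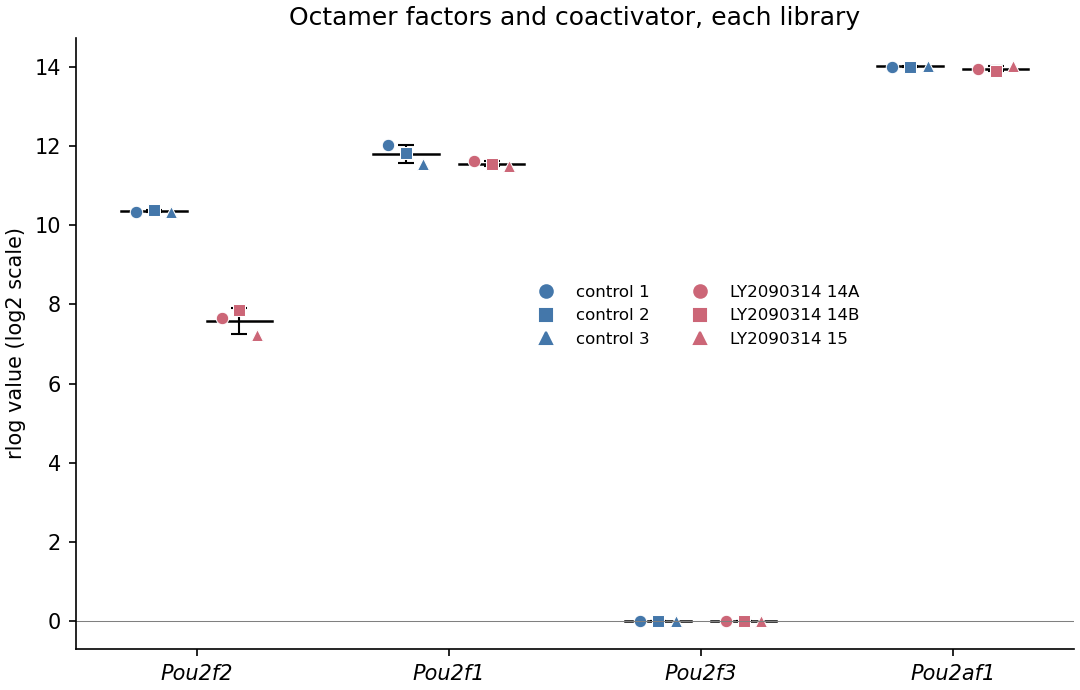
rlog value (y axis, log2 scale) of the 4 genes in each of 3 control and 3 LY2090314-treated ERT2 libraries; each symbol is 1 library, horizontal lines are means and bars are SDs. *Pou2f2* lies between 10.33 and 10.39 in controls and between 7.22 and 7.86 with LY2090314, whereas *Pou2f1* and *Pou2af1* overlap between the groups and *Pou2f3* is at 0.

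Per kilobase of annotated exon, obtained by subtracting the log2 of the length in kb, the order of levels in control cells was *Pou2af1* (12.66), *Pou2f1* (7.75) and *Pou2f2* (7.31). Per kilobase, *Pou2f2* minus *Pou2f1* was −0.68, −0.42 and −0.22 in control libraries 1, 2 and 3, so *Pou2f2* was the lower of both factors in each. With LY2090314 this log2 gap was −2.95, −2.68 and −3.26 in libraries 14A, 14B and 15, with the per-kilobase means at 7.50 for *Pou2f1* and 4.54 for *Pou2f2*. Expressed as a share of both factors' transcript level per kilobase, *Pou2f2* made up 38.5%, 42.8% and 46.3% in the controls. The shares in the treated libraries were 11.5%, 13.5% and 9.44%. In both groups the coactivator stood far above both factors per kilobase. These levels use the joined exons of all annotated isoforms, 8.243 kb for *Pou2f2*, 16.6 kb for *Pou2f1* and 2.549 kb for *Pou2af1*, and the order of the 2 factors in control cells can change with another length.

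**Figure D2:**
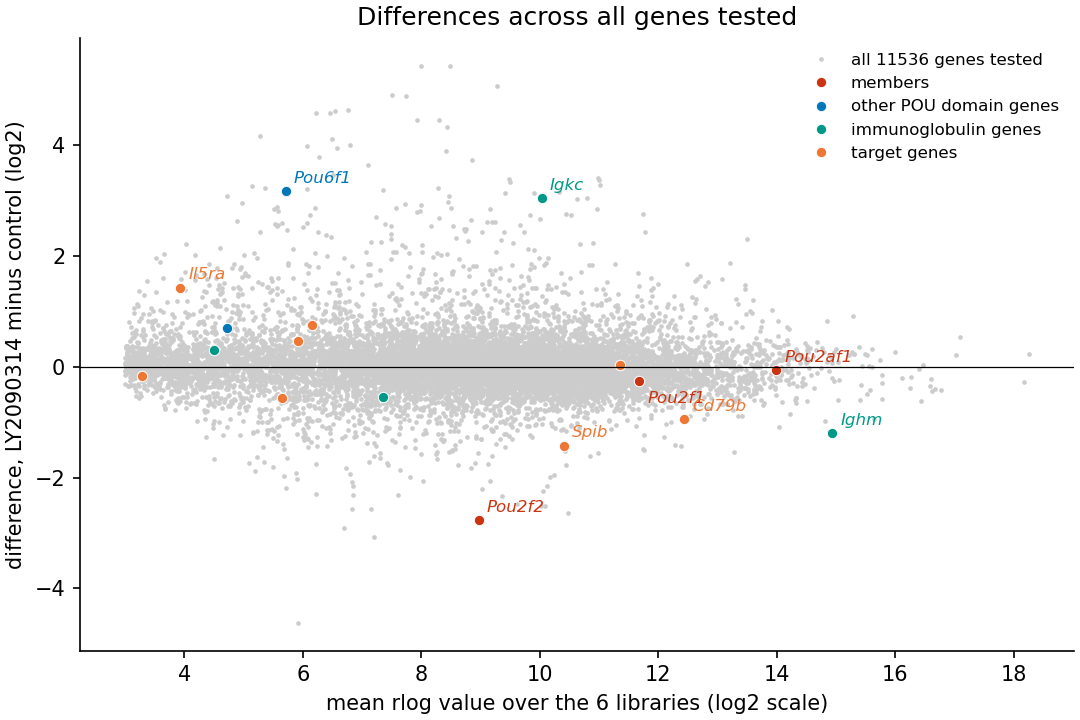
Difference between LY2090314 and control (y axis, log2) against the mean rlog value over the 6 libraries (x axis) for 11536 genes (grey), with the members, other POU domain genes, immunoglobulin genes and target genes coloured. *Pou2f2* stands at the lower edge of the cloud at −2.77, *Pou2f1* and *Pou2af1* lie near 0, and *Pou6f1* and *Igkc* stand above 3.

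The genes whose profile over the 6 libraries was most like that of *Pou2f2*, by the Euclidean distance between mean-centred rlog values, were *2900026A02Rik* (0.471), *Myc* (0.478), *Smtnl2* (0.497), *Ptgs1* (0.584) and *Txnrd3* (0.587). The distance uses the libraries in which *Pou2f2* was chosen for its fall. Genes with falls of like size were therefore favoured in advance, and these 5 had differences from −2.91 to −2.52. *2900026A02Rik* shared the low value in library 15, with rlog values of 6.095, 6.30 and 5.23 in libraries 14A, 14B and 15. *Myc* had no such spread, with treated values of 9.15, 9.17 and 9.13. The profiles most like *Pou2af1* were those of *Nxt1* (0.0315), *Ppm1a* (0.0339) and *Mrpl44* (0.0385).

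The genes beside *Pou2f2* had smaller differences in size, as did 99.5% of all genes tested. Because *Pou2f2* was chosen for its fall, this contrast was largely set in advance. Its nearest tested neighbours towards lower coordinates were *Zfp574*, 3.85 kb away, *Rabac1* and *Arhgef1*. Those towards higher coordinates were *Dedd2*, 20.2 kb away, *Zfp526* and *Gsk3a*, which encodes the other GSK3 kinase and lies 48.5 kb away. Of these 6 genes, only *Arhgef1* passed the test, which 50.1% of all genes tested passed, and it fell by 0.25 (adjusted p = 0.0076, limma). *Gsk3a* had a difference of 0.09 (adjusted p = 0.20) and *Zfp574* one of −0.08 (adjusted p = 0.27). *Dedd2* had 4.98, 6.49 and 6.40 in the controls and 7.02, 6.81 and 6.59 in the treated libraries, a difference of 0.85 that did not pass (adjusted p = 0.090), with control library 1 apart from the other controls. Of the 6 nearest tested genes of *Pou2f1*, 3 passed, a share like that of all genes, *Pogk* lower by 0.79 and *Mpzl1* and *Rcsd1* higher by 0.34 and 0.15. Of those of *Pou2af1*, *Sik2* (0.43) and *Ppp2r1b* (0.26) rose and the other 4 did not pass. Beside *Pou2f3*, which was listed at 0, *Nectin1* (0.61), *Tbcel* (0.54) and *Arhgef12* (0.35) rose and *Thy1* fell by 0.28. The genes that overlap *Pou2f2*, *Mir6537* and *D930028M14Rik*, were listed at 0 and near −1.96. *Cd247*, which overlaps *Pou2f1*, was between 0.93 and 1.01, against over 11 for *Pou2f1*.

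**Figure D3:**
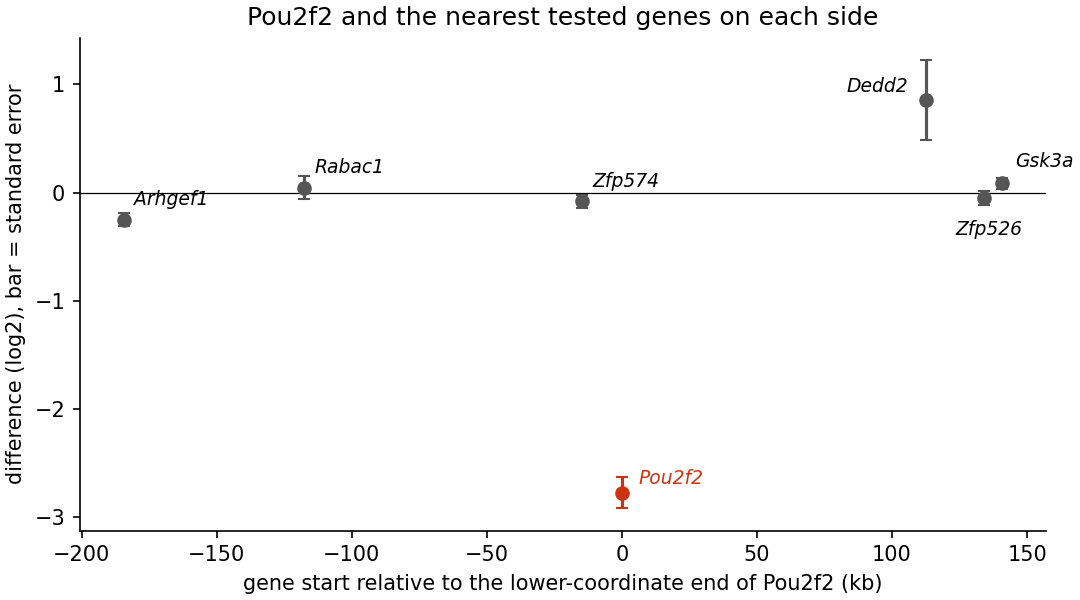
Difference between LY2090314 and control (y axis, log2, bars are standard errors) of *Pou2f2* and the 3 nearest tested genes on each side, by the position of each gene's lower-coordinate end relative to that of *Pou2f2* in kb (x axis). *Pou2f2*, chosen for its fall, stands at −2.77 and its 6 neighbours lie between −0.25 and 0.85.

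The other genes of the octamer pathway were read from the fit over all genes, in which 5778 of 11536 (50.1%) passed an adjusted p of 0.05, 24.8% higher and 25.3% lower with LY2090314. Of 60 genes on 6 lists, 58 were in the table and 36 passed the low-value limit. Of these 36, 10 rose and 13 fell (63.9% called), with a median difference of −0.16 against 0.01 over all genes. With each library left out in turn, 18 of these 23 genes kept the call.

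Among the genes reported as targets of octamer factors or OBF1, 8 of 10 were tested, of which 2 rose and 3 fell, with a median of −0.06. Of all genes tested, 24.8% were called higher and 25.3% lower. *Spib*, an ETS factor of the B lineage, had 11.06, 11.10 and 11.20 in the controls and 9.61, 9.68 and 9.79 in the treated libraries. It fell by 1.43 (standard error 0.065, adjusted p = 1.8e-06, limma), with no overlap. *Cd79b*, the Igβ chain of the B cell receptor, fell from 12.85, 12.90 and 12.95 to 11.89, 11.94 and 12.04, a difference of −0.94 (adjusted p = 6.7e-06). The scavenger receptor gene *Cd36*, a known Oct2 target, was lower by 0.57 (adjusted p = 0.048), but its groups overlapped: library 15 at 5.80 was above control library 1 at 5.69. The *Cd36* call was lost without control library 2, control library 3, 14A or 14B (adjusted p = 0.15, 0.11, 0.14 and 0.14), and without library 15 the adjusted p was 0.0041, which with 0.15 bounds its range over all alternatives.

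*Gadd45a*, a stress-response gene with the octamer pair printed above, rose from 5.80, 5.64 and 5.88 to 6.72, 6.50 and 6.36, a difference of 0.75 (adjusted p = 0.0012, limma). *Bcl6*, which encodes a transcriptional repressor of germinal centre B cells, rose by 0.46 (adjusted p = 0.019, limma). The call was lost without control library 3 (0.061) or 14B (0.060), in a range of 0.017 to 0.061. *Il5ra*, which encodes a chain of the IL-5 receptor, differed between the treated libraries. It had 3.20, 3.25 and 3.20 in the controls, 5.67 in 14A, 5.01 in 14B and 3.26 in 15, so that library 15 stood next to the controls. Its difference of 1.43 did not pass (adjusted p = 0.052), and without library 15 it was 2.12 (adjusted p = 0.00010), in a range of 0.00010 to 0.16. *Btk*, the kinase downstream of the B cell receptor, had a difference of 0.04 (adjusted p = 0.54) and the potassium channel gene *Kcnn4* one of −0.16 (adjusted p = 0.26). *Ms4a1*, which encodes CD20, was near 1.1 in all libraries and *Il6* was listed at 0.

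Immunoglobulin genes moved in both directions. Of 7 on the list, 4 were tested and all 4 passed, 2 higher and 2 lower, where 50.1% of all genes tested passed. *Ighm*, the µ heavy chain gene, fell from 15.49, 15.50 and 15.60 to 14.29, 14.32 and 14.40, a difference of −1.20 (standard error 0.070, adjusted p = 6.0e-06, limma). *Igkc*, the κ constant region gene, rose from 8.40, 8.56 and 8.55 to 11.55, 11.55 and 11.56, a difference of 3.05 (standard error 0.057, adjusted p = 2.3e-08), or 8.27-fold. Both groups of values were tight in both genes and far apart. *Ighd*, the δ heavy chain gene, fell by 0.54 (adjusted p = 0.028), but did not pass without control library 1, control library 2 or library 15 (0.091, 0.077 and 0.054, in a range of 0.018 to 0.091). *Jchain*, which joins IgM and IgA units, rose by 0.31 (adjusted p = 0.025) and did not pass without control library 2, control library 3, 14B or 15 (0.084, 0.059, 0.067 and 0.058, in a range of 0.015 to 0.16). *Iglc2*, a λ constant region gene, lay near −1.96.

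Most of the wider POU family was low or listed at 0. Of 12 other POU domain genes, 6 were listed at 0 and 10 did not reach the low-value limit, *Pou5f1* among them at −1.24. The remaining pair rose, where 24.8% of all genes tested were called higher. *Pou6f1*, a POU factor studied mainly in the nervous system, went from 4.04, 4.22 and 4.11 to 7.53, 7.30 and 7.05. The difference was 3.17 (standard error 0.13, adjusted p = 1.0e-06, limma), or 8.995-fold. *Pou4f1*, a factor of sensory neurons, rose by 0.71, from 4.50, 4.19 and 4.38 to 4.999, 4.96 and 5.25 (adjusted p = 0.0016). In neither gene did the groups overlap, as was so for 58.6% of all genes tested. Both genes remained below the value of *Pou2f2* in control cells. In treated libraries 14A, 14B and 15, *Pou2f2* itself had 7.66, 7.86 and 7.22, so *Pou6f1* was then close below it. These values are not corrected for gene length.

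Of 10 tested cofactors and partners of octamer factors, 1 rose, 1 fell and 8 did not pass, where 50.1% of all genes tested passed. *Snapc3*, a subunit of the complex with which Oct1 activates small nuclear RNA genes, rose from 7.52, 7.47 and 7.57 to 8.34, 8.32 and 8.26, by 0.79 (adjusted p = 6.7e-05, limma). The other 4 SNAPc subunits had differences between −0.18 and 0.10 and none passed, although *Snapc2* was at an adjusted p of 0.039 and a difference of −0.25 without library 15 (range of 0.039 to 0.53). *Hcfc1*, a cofactor of Oct1, fell by 0.19 (adjusted p = 0.021), a call lost without control library 1, control library 2 or 14B (0.075, 0.081 and 0.058, in a range of 0.013 to 0.081). *Siah1a*, *Siah1b* and *Siah2* encode ubiquitin ligases, of which Siah1 is known to target OBF1 for degradation. Their differences were 0.18, −0.23 and −0.18 (adjusted p = 0.13, 0.052 and 0.051, limma). The groups of the latter pair did not overlap, nor did those of 58.6% of all genes tested. That pair passed without the mean-variance trend (0.032 and 0.049) and with a mean of at least 5 (0.045 and 0.048). It also passed when median centred (0.032 and 0.030) or quantile normalized (0.019 and 0.025), with 0.16 the highest over the alternatives for each. *Pou2af3*, which with *Pou2af2* encodes a coactivator of Pou2f3 and is listed as *Colca2*, lay between −0.45 and −0.37.

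Of 9 factors that act beside octamer factors at B cell enhancers, 2 rose and 5 fell, with a median of −0.34. The shares over all genes tested were 24.8% higher and 25.3% lower. *Mef2b*, whose promoter holds the octamer printed above, fell from 5.86, 6.29 and 6.24 to 4.27, 4.11 and 4.35, a difference of −1.885 (standard error 0.13, adjusted p = 1.8e-05, limma). *Pax5*, the B lineage commitment factor, fell by 1.54 (adjusted p = 9.8e-06). *Irf8*, *Ebf1* and *Tcf3* fell by 0.49, 0.40 and 0.34. *Irf4*, which acts at the κ light chain enhancers, rose from 12.77, 12.78 and 12.69 to 14.17, 14.21 and 14.11, by 1.41 (adjusted p = 7.6e-07), and *Ets1* rose by 0.78 (adjusted p = 0.00014). *Spi1*, which encodes PU.1, had a difference of 0.06 (adjusted p = 0.63). *Mef2c* had one of −0.16 (adjusted p = 0.24), which passed without control library 3 (−0.27, adjusted p = 0.034, in a range of 0.034 to 0.63).

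**Figure D4:**
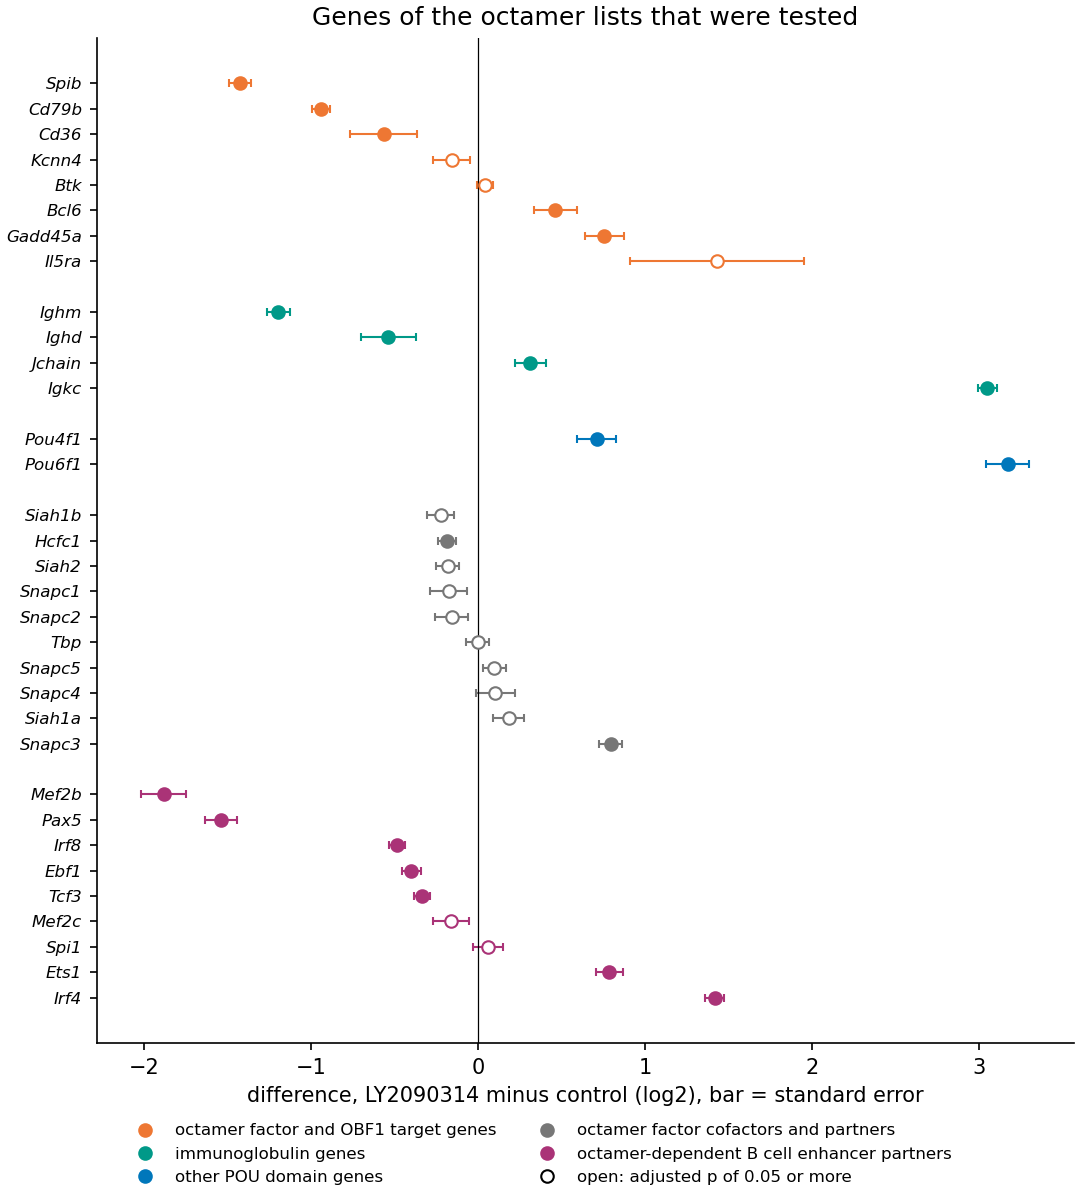
Difference between LY2090314 and control (x axis, log2, bars are standard errors) of the tested genes of 5 octamer lists (y axis); filled points passed an adjusted p of 0.05 and open points did not. *Igkc* and *Pou6f1* stand above 3, and *Mef2b*, *Pax5*, *Spib* and *Ighm* stand below −1.

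Of 10 markers of tuft cells, the cells that depend on Pou2f3, *Trpm5*, *Chat*, *Dclk1*, *Il25* and *Sh2d6* were listed at 0, as *Pou2f3* itself was. The 3 tuft markers tested, all of which passed where 50.1% of all genes tested did, are also made in blood cells. *Ptgs1* fell by 2.91 (adjusted p = 4.0e-07, limma) and *Gfi1b*, which encodes a transcriptional repressor used in blood cell development, by 0.43 (adjusted p = 0.0030). *Alox5ap*, needed for leukotriene synthesis, rose by 2.20 (adjusted p = 1.4e-06).

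Across all genes tested, 139 had an octamer in a RefSeq promoter, a list drawn up after the values were known. Of these 46 rose and 42 fell (63.3% called), against 51.6% of the 8681 tested genes with a promoter in the table and 50.1% of all tested. Their median difference was 0.06. The most negative was that of *Mef2b* (−1.885), followed by *Tlr9*, which encodes a receptor for DNA (−1.56). The most positive were those of *Acpp*, an acid phosphatase gene (2.24), *Jaml* (2.065) and the kinase gene *Pim2* (1.79). Genes with an octamer near their start thus lay on both sides of 0.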

How the data were processed

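Stranded libraries of polyadenylated RNA were sequenced as paired-end reads. The authors quantified transcripts with Salmon (version 1.4.0), aligned reads with STAR to GRCm38 with GENCODE vM24, used DESeq2 (version 1.30.1) and deposited regularized log2 values for 41444 genes. The samples and options of that transformation are not given in the sources used here. Columns were matched to groups by name. Of 12 columns, 6 were used and 6 were not used in any step. The study's count test could not be repeated on log2 values. Over the 6 libraries, 11536 genes averaged 3 or more and were compared with limma (version 3.58.1, R version 4.3.3; mean-variance trend, Benjamini-Hochberg adjustment, threshold 0.05), and the fit was tested on simulated data. The members and lists were chosen with earlier results of these data known. List genes were named where tested, with the 5 genes most like *Pou2f2*, the 3 most like *Pou2af1* and the 3 nearest tested genes on each side of a member, the genes on either side of *Pou2f2* in order of difference and, chosen after their values were seen, the extremes among octamer promoters. Of the pre-B markers, 1 is not reported here. Symbols matched 41157 identifiers. Positions are from GENCODE vM21 (GRCm38), an earlier release than that of the authors. Alternatives covered the trend, the low-value limit, scaling, left-out libraries, a shared library number and the threshold. The 3 libraries per group limit the precision, and intervals from counting error cannot be given.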

Additional observations from a re-analysis of the deposited data

How the results depend on the processing

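The number of genes that passed, 5778, was 693 when a difference of at least 1 was also required, and that of the octamer lists, 23, was then 9. Fewer genes can meet that rule by its construction. With 1 library left out, these numbers were 4741 to 6225 and 19 to 23. Differences of *Pou2f2* ranged from −2.92 to −2.59, of *Pou2f1* from −0.37 to −0.13 and of *Pou2af1* from −0.09 to −0.04. Quantile normalization moved *Pou2af1* to −0.12, by more than its SD, and the cause was not tested. The median of all genes moved from 0.01 to −0.04 under it. Among the 36 list genes, 3 that had not passed changed sign. With 1 library left out, *Spi1* ranged from −0.040 (without control library 1) to 0.15, *Snapc4* from −0.026 (without 14A) to 0.18 and *Tbp* from −0.060 to 0.035. *Tbp* was 0.026, 0.022 and 0.035 without control library 2, control library 3 and 14A, and 0.0036 with 14A and 14B averaged. Of the 23 list genes that passed, 9 did so under every setting, the one that asks for a difference of at least 1 included. *Pou2f3*, listed at 0, gave no value under any setting.

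No paired analysis was possible because the treated columns are numbered 14, 14 and 15, and neither number is among the replicate numbers of the titles. The alternatives planned for the Cre-ERT2 comparisons were not run, since those libraries were not used. Depth is unknown, so what it limits was not assessed.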
